A study of Homo sapiens with 2 samples.

Results

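The regions described here are the RRN3 PAR-CLIP peaks that lie in introns of short protein-coding genes, those with a gene body under 50 kb. A peak was included when its midpoint fell in such a gene of GENCODE release 44 on the strand of the peak and in no exon of any annotated transcript on either strand, and peaks that also lay in a longer protein-coding gene on that strand were left out. Of the 7793 peaks in the list, 733 met this rule, which is 9.41% of the list and part of the 4417 intronic peaks of protein-coding genes. Touching peaks on the same strand were joined, and the 733 peaks then formed 441 sites in 421 genes on 19 chromosomes.

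The peaks came from SK-OV-3, an established human ovarian cancer cell line, stably transduced with a lentiviral vector in which the EF1a promoter drives RRN3 with a V5 tag at its N-terminus. Cells of both libraries carried this vector and were given 100 μM 4-thiouridine for 14 h and then 365-nm UV light at 0.2 J/cm2. The lysate was treated with RNase A and DNase I, and some of it was set aside for the input library. An antibody to the V5 tag pulled RRN3 down from what was left, and V5 peptide released it. There was 1 V5 immunoprecipitate library and 1 input library, so no value below has a replicate check, no p-value across peaks or genes was computed, and intervals (95%) cover the counting error of the number of sites only. The depth behind single peaks is unknown.

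RRN3, also known as TIF-IA, is the initiation factor that brings RNA polymerase I to the ribosomal RNA genes in the nucleolus. PAR-CLIP records RNA that crosslinks to a protein through the uridine analogue 4-thiouridine. Introns are transcribed by RNA polymerase II as part of the precursor mRNA and are removed by splicing between a 5′ splice site, which usually begins with GT, and a 3′ splice site, which usually ends with AG. The dinucleotide CpG is rare in most of the human genome, because methylated cytosine is readily lost by deamination, and is common in the unmethylated islands around many gene starts.

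The sequences of sites on which the results below turn are given first, each read from GRCh38 on the strand of the gene, 5′ to 3′, with every CpG in capitals. The first set holds sites in genes of autophagy, of ribosome production and of splicing. Ribosome production ties to the known role of RRN3 and splicing to the processing of introns, and autophagy is among the gene lists below.
OPTN (chr10:13133452-13133470, +): gtttCGgggttgtagaaca
MAP1LC3A (chr20:34547167-34547182, +): ggCGgggagtttgaCG
UTP6 (chr17:31893760-31893779, -): actggattttctgaaatctg
NOLC1 (chr10:102156886-102156903, +): tgcaCGtagcaaaagttt
RPL13A (chr19:49487999-49488018, +): ggaagtgtggcCGggCGgtc
SF3B1 (chr2:197434518-197434533, -): aacCGagattcCGtta

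The second set shows the sites with the most CpG, of which there were 10 with 4 CpG each. Here 5 of them are given to show how closely the CpG stand together.
ZNF555 (chr19:2841806-2841828, +): agCGgggagCGgCGccCGgagcc
VRK3 (chr19:50025236-50025255, -): CGaggCGaaCGaggggaCGt
ATXN7L3 (chr17:44200022-44200041, -): gggCGCGCGaaagCGaaaga
ZMYM5 (chr13:19863221-19863236, -): gCGgCGgaggtCGCGg
NR4A1 (chr12:52037063-52037078, +): gctgCGtCGgcCGcCG

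The third set shows sites at the edge of an exon, where the site runs across or beside a 5′ splice site, and sites without CpG whose peaks were listed at a p-value of 0.
SLC6A4 (chr17:30203165-30203175, -): agaggtaCGtg
WFDC8 (chr20:45558844-45558853, -): aggtagCGat
SLC25A16 (chr10:68506572-68506588, -): aaCGgtagttaaacttt
SELENOK (chr3:53890231-53890250, -): ttttgttggagaaagaaaat
NCAPG (chr4:17811811-17811825, +): ttgaggatatgagat

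The peaks were short. Single peaks had a median length of 11 bases (5 to 61), and joined sites a median of 17 bases, with quartiles of 15 and 19 bases and a range of 5 to 72. Of the 441 sites, 155 were a single peak, 281 (63.7%, 59.1 to 68.1) were a pair of touching peaks, and 5 held 3 or more. Pairs were about as common in sites of genes of 50 to 500 kb (61.7%) and of genes over 500 kb (64.3%). The plus strand held 377 member peaks and the minus strand 356.

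The deposited p-value and the deposited fold enrichment over input behaved differently. The median p-value of the 733 peaks was 5.31e-47 and the highest was 0.0209, and 20 peaks (2.73%) were listed at 0. The medians in the longer genes were 9.31e-46 and 1.92e-47, with 3.72% and 4.29% of peaks listed at 0. Both peaks of a touching pair had nearly the same p-value, since in 265 of the 274 pairs above 0 the p-values lay within 1 of each other on the log10 scale, with a median gap of 0.114 on that scale. The fold enrichment ran from 2.00 to 3.99 with a median of 2.97 and was spread evenly over that range, with 195, 184, 178 and 176 peaks in successive bins of 0.5. Across the 713 peaks with a p-value above 0 it had almost no relation to -log10 p (Pearson r = -0.0024, Spearman rho = -0.019, over peaks of the same libraries, which are not independent), and touching neighbours differed by a median fold of 0.608. Sites are therefore ordered below by p-value, and fold values are given only as the authors listed them. The deposited false discovery rate, described with the processing, did not vary between peaks and is at odds with p-values this low. The p-values are therefore read as an order only.

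The peaks listed at a p-value of 0 lay in 11 genes. SGCB, which encodes the muscle protein beta-sarcoglycan, held 3 of them in a site of 32 bases made of 4 peaks, in intron 2 of 5. Whether reads at the SGCB site, or at any other site, came from a similar sequence elsewhere, such as a small RNA, was not tested. Pairs of peaks at 0 formed the sites of SELENOK, an ER selenoprotein, VRK3, a member of the vaccinia-related kinase family, EHD3, a protein of endocytic recycling, HOXC4, a homeobox transcription factor, NCAPG, a condensin subunit, APOL3, an apolipoprotein L, and REEP5, a protein that shapes the ER. Single peaks at 0 lay in WDR45B, CABYR and SLC25A20, the mitochondrial carnitine and acylcarnitine carrier. By eye, the 14 bases of the WDR45B site resembled a plasmid origin of replication, and the cells carried a plasmid-derived vector whose sequence was not used here, so whether its reads came from WDR45B was not tested. These sites had no common base composition: GC ran from 14.3% in REEP5 to 70% in VRK3, and the number of CpG from 0 in SELENOK, NCAPG, REEP5 and CABYR to 4 in VRK3. HOXC4 was the host by name of a site that lies in 2 genes under 50 kb.

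Among 9876 eligible genes, which are protein-coding genes under 50 kb with at least 1 intronic base that could hold such a peak, on the chromosomes of the peak list used here, 421 (4.26%) held a member. These are chromosomes 1 to 6 and 10 to 22, so the shares of genes and the densities per Mb given here refer to them and not to the whole genome. The list as read here held no peak on the other chromosomes, and the reason is not known. Of these hosts, 401 held 1 site and 20 held 2, and none held 3 or more. Hosts were longer than the other eligible genes, with a median gene body of 28.2 kb against 15.4 kb and a median of 21.7 kb against 10.4 kb of intronic bases. An exonic peak was also present in 17 hosts (4.04%, 2.54 to 6.37), among them RPL13A, NCAPG, NR2F2 and HYOU1, and in 281 of the 9455 eligible genes without a member (2.97%, 2.65 to 3.33). In 6 of the 17, HYOU1 included, a member site touched a peak that was not a member, and without them 11 hosts (2.61%, 1.47 to 4.62) remained. At once in 2 or more short genes lay 18 sites.

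The genes with 2 sites, ordered by their number of peaks, began with AFG3L2, FBXO33, NET1, TGFBI, TIMM50 and TMX3, each with 4 peaks. In AFG3L2, a mitochondrial protease subunit, the sites lay 13.978 kb apart at lowest p-values of 4.09e-72 and 2e-36. In FBXO33, an F-box protein, they lay 6.41 kb apart in the same first intron, at 1.16e-163 and 8.26e-60. In NET1, an exchange factor for RhoA, the distance was 25.425 kb. In TGFBI, a matrix protein induced by TGF-beta, it was 28.4 kb. The sites of TIMM50, a subunit of the mitochondrial inner membrane translocase, were 22 bases apart and shared an intron of only 105 bases, with the second site reaching into the next exon. In TMX3, a thioredoxin-related protein of the ER, they lay 21.975 kb apart. Of the genes with 3 peaks, the first 6 by name were COL20A1, D2HGDH, IFI44L, MED25, SEPHS1 and SHC2. Their sites lay from 5 bases (COL20A1) to 23.16 kb (SEPHS1) apart. Distances in these 12 genes thus ran from neighbouring bases to most of the gene body.

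Sites were somewhat denser in the introns of short genes than in those of longer genes. The 441 sites lay in 135.4 Mb of intron, or 3.26 sites per Mb (2.96 to 3.58), against 2.70 (2.58 to 2.83) in genes of 50 to 500 kb and 2.54 (2.33 to 2.77) in genes over 500 kb. Within the short genes, the density was 4.49 per Mb (3.19 to 6.14; 39 sites) in genes under 10 kb, 3.64 (2.94 to 4.45) at 10 to 20 kb, 2.94 (2.38 to 3.59) at 20 to 30 kb, 3.23 (2.65 to 3.91) at 30 to 40 kb and 2.99 (2.44 to 3.62) at 40 to 50 kb. The interval for all short genes does not overlap those of the longer classes, while those of the 5 bins overlap each other. No test of these differences can be made with 1 library per condition. By chromosome, the density ran from 1.89 (1.08 to 3.07) on chromosome 3 to 4.36 (3.17 to 5.85) on chromosome 17. The intron lengths used by chromosome add up to slightly more than the total above, so these densities are slightly low beside it.

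The hosts nearest the 50 kb limit on either side had the same number of sites and peaks. Just inside it were FBLN7 (49.833 kb), PYGB (49.927 kb), the brain form of glycogen phosphorylase, and TLE2 (49.996 kb), a transcriptional corepressor, with lowest p-values of 3.99e-62, 6.74e-74 and 1.46e-39. Just outside it were PARP14 (50.001 kb), AGXT2 (50.034 kb) and PRCC (50.205 kb), with 5.03e-38, 9.08e-54 and 7.91e-21. Each of the 6 genes held 1 site of 2 peaks.

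The clearest feature of the sites that the rule did not use was their CpG. A CpG was present in 290 of the 441 sites (65.8%, 61.2 to 70.0), against 20.1% (17.3 to 23.3) of windows of the same length 1 kb to either side. By number, 151 sites had no CpG, 199 had 1, 64 had 2, 17 had 3 and 10 had 4. Observed over expected CpG relates the frequency of CpG to the frequency that C and G alone would give, and was 0.899 (0.819 to 0.986) in the sites, 0.385 (0.349 to 0.424) in the 20 bases on each side, 0.278 (0.239 to 0.324) in the windows 1 kb away and 0.280 over all eligible intronic bases. The GC share differed much less, at 51.2% (50.0 to 52.3) in the sites, 49.7% in the 20 bases on each side and 46.8% at 1 kb.

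The frequency of CpG changed at the edge of the site. CpG made up 5.86% (5.34 to 6.43) of the dinucleotides within the sites and between 2.07% and 3.05% in each of the 20 bins of 10 bases out to 100 bases on both sides. Against the 20-base flanks, CpG was 2.47 times as frequent in the sites, whereas each of the other 15 dinucleotides lay between 0.789 times (CA) and 1.15 times (GA) its flank share. The sites of NOLC1 and OPTN printed above show the common form, with a single CpG in a sequence that is otherwise poor in it.

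Sites in longer genes had the same feature at lower values. Observed over expected CpG was 0.771 (0.728 to 0.816) in sites of genes of 50 to 500 kb and 0.770 (0.686 to 0.864) in those of genes over 500 kb, with 50.6% and 46.1% of sites holding a CpG. Their flanks stood at 0.283 and 0.255, so that the ratio of site to flank was 2.33 in short genes, 2.72 at 50 to 500 kb and 3.02 above. The GC share of the sites was 46.2% and 42.1% in the longer classes, whose introns are also poorer in GC (41.4% and 38.7%, against 45.7% in the short genes).

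Nearness to the gene start moved with the CpG of the sites and of their surroundings. The 50 sites within 1 kb of a gene start had an observed over expected CpG of 1.20 (0.989 to 1.45) and their flanks 0.730 (0.621 to 0.857), with 45 sites holding a CpG. The other 391 sites had 0.833 (0.749 to 0.925) and flanks of 0.305 (0.270 to 0.344), a ratio of 2.73 against 1.64 near the start. The CpG of sites was thus above that of the flanks in both groups. Of the 10 sites with 4 CpG, those of ZNF555, VRK3, ATXN7L3, SEPHS1, ZMYM5 and MTSS2 lay within 1 kb of the start of the gene, and those of AGBL5, NR4A1, FAAP100 and NR4A2 lay farther away. NR4A1 and NR4A2 encode orphan nuclear receptors, and SEPHS1 belongs to selenophosphate synthesis.

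Sites lay closer to gene starts and to exons than the pooled intronic bases of their hosts. The pool gives genes with more intron more weight, whereas most hosts held 1 site whatever their length. How much of the differences below comes from this weighting was not tested. Within 1 kb of the gene start were 50 sites (11.3%, 8.71 to 14.6), against 2.70% of the intronic bases of the hosts. The fifth of the gene body at its start held 128 sites (29.0%, 25.0 to 33.4) against 21.1% of the bases, and the fifth at the gene end held 60 (13.6%, 10.7 to 17.1) against 14.5%. For the 372 sites that lie in an intron of the transcript with the longest exonic sequence, 137 were in the first intron (36.8%, 32.1 to 41.8), which holds 30.2% of the bases, and 77 (20.7%) were in the last. The tenth of peaks with the lowest p-values left too few sites to place these shares, with 4 of 16 (25%, 10.2 to 49.5) in the first intron and 4 of 19 (21.1%, 8.51 to 43.3) in the fifth at the gene end. The median site lay in an intron of 4.46 kb, 8.54 kb from the gene start and 13.0 kb from the gene end.

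Within 100 bases of an exon there were 82 sites (18.6%, 15.2 to 22.5), where 9.52% of the intronic bases of the hosts lie. The ratio of sites to bases was above 1 in every bin up to 500 bases, with 2.19 at 1 to 10 bases, 2.26 at 21 to 50, 1.79 at 51 to 100 and 1.20 at 201 to 500, and it was 0.671 beyond 1 kb. Without the sites within 1 kb of a gene start the share was 16.4% (13.0 to 20.4) against 9.08% of the bases. Over all eligible introns of short genes, in place of those of the hosts, 10.5% of the bases lie this close. The longer classes are likewise set against all their intronic bases. In genes of 50 to 500 kb, 4.09% (3.25 to 5.14) of sites lay this close against 3.58% of the bases. In genes over 500 kb it was 1.74% (0.917 to 3.27) against 1.03%. Of the 75 sites within 100 bases of an exon of the host itself, 45 (60%, 48.7 to 70.3) followed the exon and 30 preceded it.

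The sites nearest to an exon sat on its edge. Those of HYOU1, an ER chaperone, SLC6A4, the serotonin transporter, ALDH1A3, a retinaldehyde dehydrogenase, WFDC8, a gene known by its identifier ENSG00000269547, and SLC25A16, a mitochondrial carrier, had midpoints 1, 2, 2, 4, 4 and 5 bases from an exon. The PTPN18 site also had its midpoint 5 bases from an exon. The midpoint of the SLC6A4 site lay 2 bases into the last intron at a p-value of 1.25e-171, that of WFDC8 4 bases into intron 3 at 3.12e-65, and that of SLC25A16 5 bases into intron 3 at 6.71e-133. In all, 10 sites (2.27%) had a base in an exon, and 7 touched a peak that was not a member. Without these sites the share within 100 bases of an exon was 16.5%.

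None of the 5 words searched, which mark polyadenylation, splicing or poly(A) binding, was more frequent around the sites than in these introns at large by more than its interval. AATAAA, the main polyadenylation hexamer, stood on the gene strand within 100 bases of 38 sites (8.62%, 6.34 to 11.6), against 12.3% of 585325 windows of 217 bases tiled over the eligible introns. The variant ATTAAA was near 5.67% of sites (3.87 to 8.23) against 9.33%, a run of 7 T, TTTTTTT, near 8.84% (6.54 to 11.9) against 14.8%, and AGAAAAA, a word bound by the poly(A)-binding protein PABPC1, near 3.85% (2.42 to 6.09) against 5.97%. The 5′ splice site word GTAAGT was near 4.76% (3.14 to 7.17) against 3.67%. Within the sites themselves these words occurred in 1, 1, 0, 1 and 3 sites in the same order. Windows around the sites are richer in GC than introns at large, and the part of that in the lower shares of the AT-rich words was not tested.

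Almost every site was unique in the genome. The 20 bases around the centre occurred once in chromosomes 1 to 22, X and Y, on both strands, for 435 of the 441 sites (98.6%, 97.1 to 99.4), against 76.9% (73.6 to 79.9) of the windows 1 kb away. The others were PGPEP1L with 150 copies, CRISP3 with 12, AGBL5 with 6, and VAMP4, LPCAT3 and SNRPB with 2 each. Of the 331 sites of at least 15 bases, 4 (1.21%) had their whole sequence in a protein-coding transcript, against 94 of 516 windows (18.2%). How reads with several matches were treated is not given in the sources used here.

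Sites in 4 genes overlapped small RNA genes listed by RefSeq. This counts overlap in position only, and inexact likeness in sequence to small RNA genes elsewhere was not tested. The AGBL5 site shared 27 of its 29 bases with the tyrosine tRNA gene TRY-GTA2-1 and ran 2 bases past its end. The sites of SNRPB and ATP5F1B lay within the snoRNA genes SNORD119 and SNORD59B over all of their 72 and 47 bases, at lowest p-values of 1.42e-05 and 0.0209. The PANK2 site shared 1 base with MIR103A2, which is also an annotated exon in GENCODE, and was a member because its midpoint lay before that exon.

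Genes of autophagy, the pathway by which cells digest their own components, were hosts in 3 of 39 eligible cases (7.69%, 2.65 to 20.3). The site in OPTN, an autophagy receptor, was 19 bases long with 2 peaks at p-values of 9.79e-54 and 1.02e-53, and lay 41 bases before the 3′ splice site of intron 14 of 15, 4.847 kb from the gene end. The site in MAP1LC3A, which encodes an LC3 protein of the autophagosome membrane, lay 320 bases after the gene start at 2.04e-75. The WDR45B site, in a gene for a phosphoinositide-binding autophagy protein, was 1 peak of 14 bases listed at 0, 64 bases into the last intron. Without WDR45B, given the doubt about its sequence stated above, the list had 2 hosts of 39 (5.13%, 1.42 to 16.9).

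In the list of genes for making ribosomes, 4 of 48 were hosts (8.33%, 3.29 to 19.6). UTP6, a component of the small subunit processome, had the lowest p-value of them at 6.11e-81, followed by NOLC1, a nucleolar phosphoprotein, at 2.45e-39, CAVIN1, a caveola protein also known as a release factor for RNA polymerase I transcripts, at 1.7e-23, and POLR1B, a large subunit of RNA polymerase I, at 8.45e-05. Hosts outside this list that also act in making ribosomes included DDX18, at a lower p-value of 4.46e-84, PDCD11 and DDX54. Genes of this kind outside the list that held no site were not counted, so these names give no share. Of the 65 ribosomal protein genes only RPL13A held a site, at 6.97e-43 and 498 bases from the gene start. Among the 56 mitochondrial ribosomal protein genes MRPL35 was the only host, at 4.63e-29. In the polyadenylation list the only host of 14 was RBBP6, a protein associated with 3′ end cleavage, with a single peak at 0.0191.

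In the list of splicing factor genes, 4 of 47 were hosts (8.51%, 3.36 to 19.9). The sites of HNRNPM, SF3B1 and HNRNPF had lowest p-values of 6.72e-101, 1.41e-50 and 1.79e-33, and the SF3B1 site lay 447 bases into the first intron. The fourth host in the list was SNRPB, whose site lies wholly in SNORD119, and without it the count was 3 of 47 (6.38%, 2.19 to 17.2). Hosts outside the list that also serve splicing included SART1, CRNKL1, DDX23, PRPF39 and PRPF38B. Splicing genes outside the list that held no site were not counted, so these names give no share. Of the oxidative phosphorylation genes, 5 of 58 were hosts (8.62%, 3.74 to 18.6), led by ATP5MC2, a subunit of ATP synthase, at 1.3e-253, NDUFA7, a subunit of complex I, at 3.56e-193, and NDUFS6 at 7.6e-25. Without ATP5F1B, whose site lies wholly in SNORD59B, the count was 4 of 58 (6.90%, 2.71 to 16.4). PSMB5, a catalytic subunit of the proteasome, was the only host of 32 proteasome genes, at 4.83e-193. POLR3E, a subunit of RNA polymerase III, was the only host of 14 RNA polymerase II and III genes and held 2 sites.

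Solute carriers gave 13 hosts of 185 (7.03%, 4.15 to 11.7), with SLC25A20 at 0, SLC6A4 at 1.25e-171 and SLC9A5 at 3.83e-150. RAB GTPases, which direct vesicle traffic, gave 4 of 34 (11.8%, 4.67 to 26.6), with RAB20 at 9.84e-59, RAB29 at 3.5e-39 and RAB39A at 4.92e-32. C2H2 zinc finger genes gave 10 of 315 (3.17%, 1.73 to 5.74), with ZNF790 at 2.52e-65, ZNF555 at 1.05e-56 and ZNF554 at 1.35e-53. The 46 translation factor genes held none, and 3 counts, the limit that a count of 0 allows, would be a share of 6.52%.

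Some genes known for their expression in other tissues were hosts. In the liver and keratin lists the shares lay close to the 4.26% of all eligible genes, with wide intervals. Per Mb of intron, the liver list had 3.81 sites (0.0966 to 21.3) and the keratin list 7.14 (0.864 to 25.8). All short genes had 3.26, and the lymphocyte list had none. FGB, the liver gene for the fibrinogen beta chain, was the only host of 24 genes of liver secreted proteins (4.17%, 0.739 to 20.2). Its site, at 5.68e-119, lay 23 bases before the 3′ splice site of the last intron. The hair keratin genes KRT31 and KRT32 were the 2 hosts of 53 keratin genes (3.77%, 1.04 to 12.8), at 1.26e-62 and 3.57e-14. None of the 26 genes in the lymphocyte list held a site, where the same limit is 11.5%. The list does not hold every such gene, and SLAMF6 and TRAT1, which are expressed in lymphocytes, were hosts outside it. Across the 16 lists, the 95% interval of the share reached above and below the 4.26% of all eligible genes in every list but the RAB GTPases, whose density of 6.34 sites per Mb (1.73 to 16.2) still spanned the 3.26 of all short genes.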

How the data were processed

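PAR-CLIP libraries of V5-RRN3 SK-OV-3 cells, 1 immunoprecipitate and 1 input, were made with adapters that carry molecular identifiers and sequenced on an Illumina NovaSeq instrument. The authors deposited a peak list with positions, strand, length in bases, a fold enrichment (a ratio over input, scaling not stated), a p-value (test not stated), a false discovery rate and a score. The deposited false discovery rate and the deposited score were 1 for all 7793 peaks and were not used. GRCh38 is named in the submitters' processing notes, and the aligner and the peak caller are not given in the sources used here.

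Peaks were placed by midpoint on GENCODE release 44, with starts counted from 0 in the list and positions printed from 1. Shares have Wilson and densities exact Poisson 95% intervals, which cover counting error only, and the limit for a count of 0 is 3 counts. Backgrounds are exact shares of intronic bases, or windows of the same length at 1 kb. Motifs were exact matches on the gene strand. Placement, joining, CpG and word counts were tested on simulated data. Of the 20 genes with 2 sites, 12 were named, taken by number of peaks and then by name. Other named genes were those with peaks listed at p 0 (11 genes), hosts in the gene lists, the genes and sites nearest the 50 kb limit and exons, and the 10 sites with the most CpG. The members and lists were chosen with earlier results of these data known. The gene lists do not hold every gene of their class, so shares and rankings of hosts refer to the lists. Alternatives covered placement, exons, the length limit, p-value strength, joining, transcript choice, background and motif window. Software was pysam 0.24.0, scipy 1.17.1 and numpy 2.4.6 with pandas 2.3.3 and matplotlib 3.10.9 under Python 3.11.15.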

Additional observations from a re-analysis of the deposited data

How the results depend on the processing

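Of 74 values recomputed under an alternative, 54 lay inside the main value's 95% interval (for counts, within 1.5 times of the count) and 20 moved. Keeping only the 50% of all peaks with the lowest p-values left 355 peaks, 180 sites and 177 genes and gave a GC share of 48.8%. Keeping the tenth left 36 peaks, 19 sites and 19 genes, with an observed over expected CpG of 1.05, a GC share of 47.7%, 25% of sites in the first intron (4 of 16) and 21.1% in the fifth of the gene body at its end (4 of 19), whose intervals hold the values reported for all sites; the fall in counts follows from using fewer peaks. With motif windows of 50 bases to each side, AATAAA was near 4.08% of sites, GTAAGT near 2.95% and TTTTTTT near 4.76%, against 6.81%, 1.98% and 8.31% of tiles. On both strands the shares were 16.3% for AATAAA, 9.98% for AGAAAAA, 13.2% for ATTAAA, 7.48% for GTAAGT and 12.9% for TTTTTTT, against 26.5%, 13.9%, 18.9%, 6.74% and 24.7% of tiles, since shorter or doubled windows hold fewer or more words. Over the introns of the hosts alone the density was 48.0 sites per Mb, because genes without a site were left out. Alternatives chosen after seeing the data left out sites near gene starts, where the observed over expected CpG of the sites (0.833) stayed inside its interval but the GC share (49.5%) and the CpG of the flanks (0.305) fell below theirs. Others, which moved none of the values they were run for past its interval, left out sites in RefSeq small RNA genes (0.896) and sites at exon edges, left the WDR45B site out of the autophagy list (5.13%) and the sites in snoRNA genes out of the splicing (6.38%) and oxidative phosphorylation (6.90%) lists, or shifted the midpoint by 1 base. Windows 1 kb away in place of the 20-base flanks gave a CpG background of 0.278. The share of repeat-masked sequence was not run, since the genome used here does not mark repeats. No paired analysis was possible because there is 1 library per condition. The precision is limited by the number of sites, and the read depth of single peaks was not analysed here.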
